A study of Rattus norvegicus with 12 samples.

Results

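Romboutsia, the segmented filamentous bacteria (Candidatus Arthromitus) and their relatives in the families Peptostreptococcaceae and Clostridiaceae were followed in the faeces of rats through reads of the 16S rRNA gene, which differs from one bacterial taxon to the next. Members were chosen by lineage alone: every amplicon sequence variant (ASV, a distinct 16S sequence resolved from the reads) assigned to either family. This gave 111 of 7238 ASVs, 66 in Peptostreptococcaceae and 45 in Clostridiaceae, in 10 of 384 genus-level features. The 12 libraries formed 4 groups of 3: SAH+Tet+ABX (subarachnoid haemorrhage, tetrandrine and ABX, a common short form for antibiotics), SAH+Tet (haemorrhage and tetrandrine, an alkaloid of plant origin known as a calcium channel blocker), SAH (haemorrhage alone) and Sham (sham operation). All groups except Sham share the haemorrhage model. The sources used here do not give the strain, age, the drugs in ABX, the doses or when samples were taken after surgery. Whether libraries came from separate animals is not stated in the labels, so p-values cover only library-to-library spread, which may be technical. The study asked whether gut microbial composition differed among the groups.

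Both families are anaerobic Firmicutes, many of which form spores. Romboutsia ilealis, the type species of its genus, was isolated from the rat small intestine. Segmented filamentous bacteria attach to the lining of the ileum, and in mice they are known for driving the development of Th17 cells. Clostridium sensu stricto 1 is a taxonomy name for a block of the genus Clostridium around its type species, the butyrate producer Clostridium butyricum. Clostridioides is the genus of Clostridioides difficile, a species known to expand in people after antibiotics. A bacterial genome can carry several 16S gene copies that differ slightly, so an ASV is not always a strain.

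Library totals ranged from 211450 to 531426 reads. Every SAH+Tet+ABX library fell under 300000 reads, as did SAH+Tet 3 and SAH 1, and the other 7 lay above, so antibiotic treatment and the lower depth class overlap and cannot be fully told apart. Where a library had 0 reads, the share could still be as high as 0.000565% to 0.00142%, the value of 3 reads, and this limit covers counting error only. All values are shares of reads, so fewer cells of a genus and more of the others cannot be told apart.

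The 2 families together held 6.99%, 11.7% and 2.84% of the reads in the SAH+Tet+ABX libraries, 3.46%, 8.34% and 4.50% in SAH+Tet, 2.63%, 4.69% and 6.31% in SAH, and 6.84%, 11.2% and 6.03% in Sham. The 4 ranges overlapped. Of the 299020 member reads, 236801 belonged to Romboutsia and 61085 to Clostridium sensu stricto 1. Candidatus Arthromitus had 699 reads from 1 ASV, unnamed Peptostreptococcaceae had 286 from 43 ASVs and Clostridioides had 116 from 2 ASVs. The remaining 5 features had between 3 and 19 reads each.

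**Figure D1:**
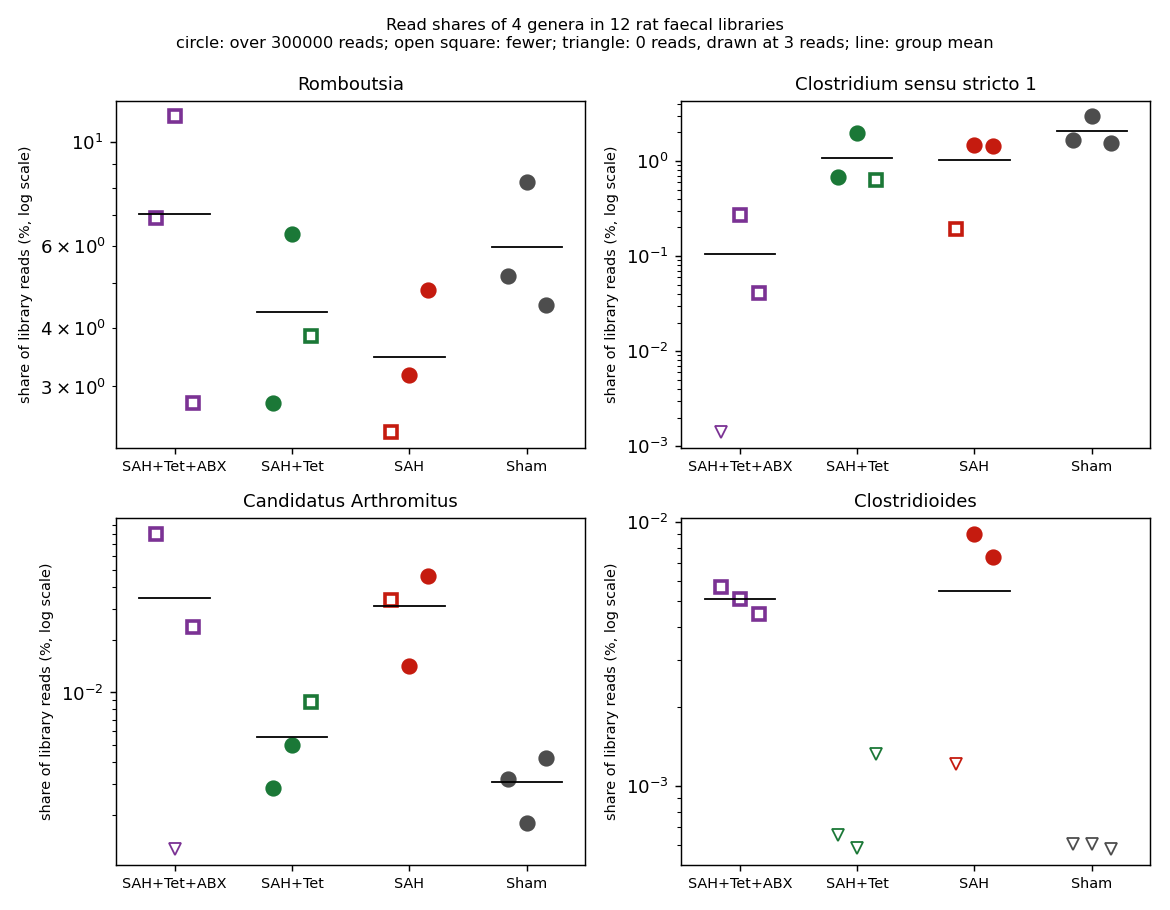
Share of library reads (%, log scale) of Romboutsia, Clostridium sensu stricto 1, Candidatus Arthromitus and Clostridioides in each library of SAH+Tet+ABX, SAH+Tet, SAH and Sham. Circles are libraries above 300000 reads, open squares those below, triangles libraries with 0 reads drawn at 3 reads, and lines group means. Clostridium sensu stricto 1 lies lowest in SAH+Tet+ABX and Candidatus Arthromitus is higher in every SAH library than in any Sham library. SAH and Sham did not overlap in 35.3% of all genus-level features tested.

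Romboutsia stayed abundant in every group and was the third to eighth most abundant genus-level feature of each library. It took 6.89%, 11.4% and 2.76% of the reads in SAH+Tet+ABX, 2.76%, 6.37% and 3.85% in SAH+Tet, 2.40%, 3.18% and 4.83% in SAH, and 5.17%, 8.23% and 4.48% in Sham. Each group's range overlapped that of its neighbour in this order. The mean share was 7.01% ± 4.31 in SAH+Tet+ABX, 4.33% ± 1.85 in SAH+Tet, 3.47% ± 1.24 in SAH and 5.96% ± 2.00 in Sham (SD, n = 3 each). An exact permutation test over the 4 groups, run for all 214 genus-level features with a mean share of at least 0.001%, gave Romboutsia an adjusted p of 0.480, and 35.5% of those features passed 0.05. The family Peptostreptococcaceae, which is almost wholly Romboutsia here, gave an adjusted p of 0.483 in the exact permutation test of 67 families, of which 37.3% passed.

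The mix of variants inside Peptostreptococcaceae, nearly all of them Romboutsia by reads, differed between groups (exact permutation p = 0.00013), while the family's total did not pass its test. Romboutsia ASV 1 and ASV 2 held 95.0% of the genus's reads, and both had reads in all 12 libraries. There were 0.909, 0.748 and 0.782 reads of ASV 1 for each read of ASV 2 in the SAH+Tet+ABX libraries. The ratio was 1.27, 1.01 and 1.22 in SAH+Tet, 1.26, 1.47 and 1.44 in SAH, and 1.86, 1.85 and 1.93 in Sham. ASV 2 was thus the more abundant of the pair in all 3 SAH+Tet+ABX libraries and ASV 1 in the 9 others. SAH+Tet and SAH touched in this ratio (highest SAH+Tet library 1.27, lowest SAH library 1.26), and the other neighbouring groups did not overlap. This ratio was singled out after its values were seen and was not tested on its own.

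As a share of library reads, ASV 2 measured 3.29%, 5.84% and 1.45% in SAH+Tet+ABX, 1.18%, 3.11% and 1.64% in SAH+Tet, 1.03%, 1.22% and 1.90% in SAH, and 1.73%, 2.75% and 1.47% in Sham. ASV 1 measured 2.99%, 4.37% and 1.14% in SAH+Tet+ABX, 1.50%, 3.14% and 1.99% in SAH+Tet, 1.30%, 1.80% and 2.74% in SAH, and 3.22%, 5.08% and 2.84% in Sham. The SAH and Sham libraries did not overlap in ASV 1, lower in SAH, as in 30.7% of all ASVs tested, while they overlapped in ASV 2. The gap in ASV 1 was narrow (2.74% in SAH 3, against 2.84% in Sham 3), and its edgeR adjusted p was 0.694.

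The test that bears on this mix compared the shares of all ASVs within Peptostreptococcaceae, which are independent of the family's total. Group explained 91.1% of the Bray-Curtis variation between libraries (exact permutation p = 0.00013 over 15400 arrangements). Beyond depth class, group explained 40.6% of the variation, and permuting within depth classes gave an exact permutation p of 0.000476, the smallest that the 2100 arrangements allow. With the Hellinger distance group explained 64.3% (exact permutation p = 0.000455). Leaving out SAH+Tet+ABX gave an exact permutation p of 0.00714 over 280 arrangements. The mean Bray-Curtis distance (0 for an identical mix, 1 for no shared reads) was 0.0498 within SAH+Tet+ABX, 0.0599 within SAH+Tet, 0.0416 within SAH and 0.0127 within Sham. From SAH+Tet+ABX to SAH+Tet libraries it was 0.120. From SAH+Tet to SAH it was 0.0620, and from SAH to Sham 0.0842. SAH+Tet and SAH were thus about as far apart as 2 libraries of SAH+Tet.

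**Figure D2:**
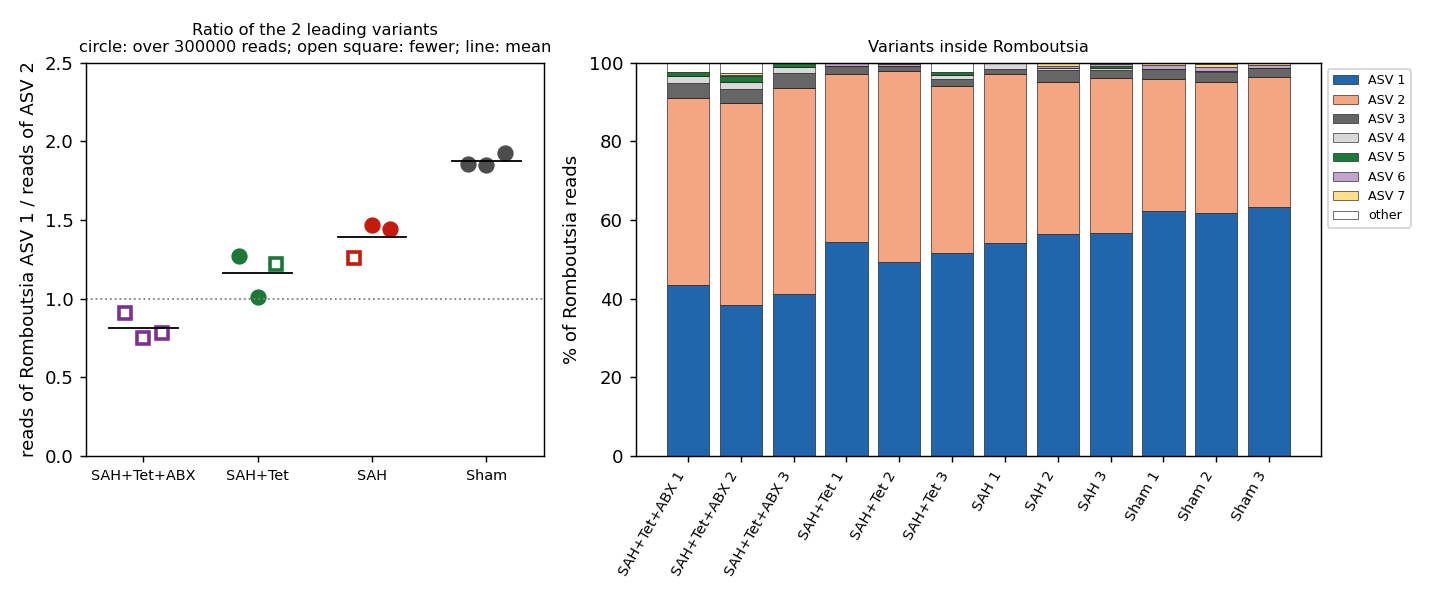
Left, reads of Romboutsia ASV 1 over reads of ASV 2 in each library (circles above 300000 reads, open squares below, lines group means, dotted line at equal reads). Right, percent of Romboutsia reads held by ASV 1 to ASV 7 and by all others in each library; the ASV 1 part is smallest in SAH+Tet+ABX, with a mean of 41.0%, and widest in Sham, with a mean of 62.5%.

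The less abundant variants of Romboutsia also differed. ASV 3 was 3.73%, 3.59% and 3.75% of the genus in SAH+Tet+ABX, against 2.06%, 1.08% and 1.75% in SAH+Tet. ASV 4 was 1.78%, 1.88% and 1.67% of the genus in SAH+Tet+ABX, against 0%, 0% and 0.948% in SAH+Tet. ASV 5 was 1.12%, 1.49% and 0.961% of the genus in SAH+Tet+ABX, against 0%, 0% and 0.891% in SAH+Tet. As a share of the genus, all 3 variants were higher in each SAH+Tet+ABX library than in any SAH+Tet library. As a share of library reads ASV 5 overlapped (0.0265% in SAH+Tet+ABX 3, against 0.0343% in SAH+Tet 3). ASV 3 and ASV 4 did not, as 22.8% of all ASVs tested. For ASV 4 and ASV 5 the only SAH+Tet library with reads was SAH+Tet 3, the one of the lower depth class. In SAH, ASV 3 reached 3.14% of the genus (SAH 2) and ASV 4 reached 1.58% (SAH 1). ASV 6 held between 0% and 0.687% of the genus in the 9 libraries of the other groups, against 1.07%, 1.15% and 0.944% in Sham, and these did not overlap. ASV 7 was 0%, 0.746% and 0.410% of the genus in SAH, against 0.527%, 0.648% and 0.472% in Sham, so these groups overlapped. These values describe the mix and have no test of their own.

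Clostridium sensu stricto 1 was the second genus in abundance and was lowest with antibiotics. It had 0, 634 and 100 reads in SAH+Tet+ABX, 3136, 10054 and 1433 in SAH+Tet, 480, 7885 and 6394 in SAH, and 8249, 14692 and 8028 in Sham. The corresponding mean shares were 0.104% ± 0.146 in SAH+Tet+ABX, 1.09% ± 0.744 in SAH+Tet, 1.03% ± 0.729 in SAH and 2.05% ± 0.778 in Sham (SD, n = 3 each). Every SAH+Tet+ABX library was below every SAH+Tet library and every SAH library was below every Sham library, while SAH+Tet and SAH overlapped. Among all genus-level features tested, 42.1% and 35.3% did not overlap in the first 2 of these comparisons. Over the 4 groups the exact permutation test gave an adjusted p of 0.0660, and 0.627 when permuted within depth classes. It passed (adjusted p = 0.0420) only without SAH+Tet+ABX 2 among the libraries left out in turn. Within the lower depth class, SAH+Tet+ABX reached at most 0.271%, against 0.630% in SAH+Tet 3, while SAH 1, at 0.193%, lay inside the SAH+Tet+ABX range.

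Relative to Romboutsia, Clostridium sensu stricto 1 had 0%, 2.38% and 1.48% as many reads in SAH+Tet+ABX, 24.8%, 30.5% and 16.4% in SAH+Tet, 8.06%, 46.7% and 29.5% in SAH, and 32.2%, 35.8% and 34.4% in Sham. The Sham libraries lay close together, and all 3 SAH+Tet+ABX libraries lay below the lowest of the 9 others, SAH 1. SAH 1 and SAH+Tet 3 (16.4%) are of the lower depth class, as is every SAH+Tet+ABX library. All libraries of that class lay below every library of the higher class, the lowest of which was SAH+Tet 1 (24.8%). The ratio was not tested, nor was the part of depth class in it.

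ASV 2 of Clostridium sensu stricto 1 had 0, 157 and 41 reads in SAH+Tet+ABX and 187, 3787 and 170 in SAH+Tet. It had 0, 1338 and 1037 reads in SAH, against 0, 90 and 0 in Sham, so SAH and Sham overlapped through SAH 1. In Sham, where ASV 2 was close to absent, ASV 1 held 85.7% to 89.0% of the genus's reads. The share of ASV 2 in the genus was highest in SAH+Tet+ABX 3 (41.0% of only 100 reads), followed by SAH+Tet 2 (37.7%). ASV 3 had 0 reads in all 3 SAH+Tet+ABX libraries and 50, 100 and 0 in SAH+Tet. It had 0, 66 and 61 reads in SAH, against 249, 613 and 356 in Sham. ASV 4 had 0 reads in all 3 SAH+Tet+ABX libraries and 0, 112 and 0 in SAH+Tet. It had 0, 57 and 84 reads in SAH, against 232, 421 and 233 in Sham. For both variants every SAH library was below every Sham library, as SAH and Sham did not overlap in 30.7% of all ASVs tested.

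Of the 40 ASVs of this genus, 37 had no read in SAH+Tet+ABX, 24 were seen in 1 library and 16 in at least 2 libraries. All ASVs together numbered 573 ± 117 in SAH+Tet+ABX, against 2066 ± 642 in SAH+Tet, at a common depth of 211450 reads. Of those 16, 14 had reads only in libraries of the higher depth class, to which no SAH+Tet+ABX library belongs. The shares of all ASVs with these patterns were not computed. ASV 8 (133, 168 and 151 reads) and ASV 9 (98, 130 and 133 reads), picked out after their values were seen, had reads in all 3 Sham libraries and in none of the 9 others.

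**Figure D3:**
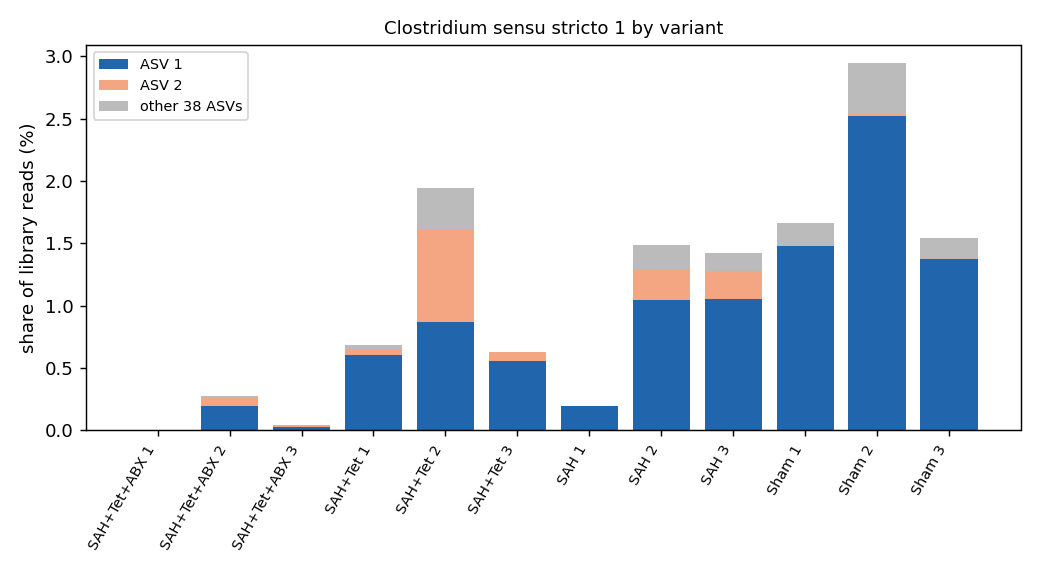
Share of library reads (%) held by Clostridium sensu stricto 1 in each library, stacked by ASV 1, ASV 2 and the other 38 ASVs. The bars of SAH+Tet+ABX reach at most 0.271%, and ASV 2 is widest in SAH+Tet 2, at 0.733% of library reads.

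Clostridiaceae as a family, which adds Candidatus Arthromitus and 4 scarce features, had 0.0804%, 0.271% and 0.0645% of the reads in SAH+Tet+ABX and 0.688%, 1.95% and 0.641% in SAH+Tet. It had 0.227%, 1.50% and 1.47% in SAH, against 1.67%, 2.95% and 1.55% in Sham. SAH+Tet+ABX did not overlap SAH+Tet, SAH did not overlap Sham, and SAH+Tet overlapped SAH. Among all genus-level features tested, 42.1% and 35.3% did not overlap in the first 2 of these comparisons. The share among families was not computed. Over the 4 groups the exact permutation test gave an adjusted p of 0.0546. This was 0.0201 without SAH 1 and 0.371 when permuted within depth classes.

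Candidatus Arthromitus, the segmented filamentous bacteria, was rare in every library and was represented by 1 ASV. It had 84, 75 and 206 reads in SAH, against 16, 9 and 22 in Sham. It had 170, 0 and 58 reads in SAH+Tet+ABX and 13, 26 and 20 in SAH+Tet. The mean share was 0.0347% ± 0.0413 in SAH+Tet+ABX, 0.00556% ± 0.00301 in SAH+Tet, 0.0313% ± 0.0160 in SAH and 0.00309% ± 0.00122 in Sham (SD, n = 3 each). Every SAH library was above every Sham library and above every SAH+Tet library, and SAH+Tet overlapped Sham. Among all genus-level features tested, 35.3% did not overlap between SAH and Sham and 23.5% between SAH+Tet and SAH. SAH+Tet+ABX spanned the whole range, with the highest library of the series and the only one at 0 reads. Over the 4 groups its adjusted p was 0.412 in the exact permutation test, and 0.0343 without SAH+Tet+ABX 2.

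Clostridioides had 12, 12 and 11 reads in SAH+Tet+ABX, 0 in all 3 SAH+Tet libraries, 0, 48 and 33 in SAH, and 0 in all 3 Sham libraries. The reads came from different variants: ASV 2 supplied all 35 in SAH+Tet+ABX and ASV 1 all 81 in SAH. Over the 4 groups its exact permutation adjusted p was 0.0433, and 0.0696 when permuted within depth classes. Its counts are small, and this call was also lost in 8 of 12 runs that left out 1 library, with adjusted p between 0.0104 and 0.0808 in the same exact permutation test.

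The 43 ASVs of unnamed Peptostreptococcaceae were each seen in 1 library, with a median of 3 reads and at most 53. Together they had 15, 21 and 4 reads in SAH+Tet+ABX, 21, 114 and 8 in SAH+Tet, 0, 35 and 2 in SAH, and 33, 25 and 8 in Sham. The 4 groups overlapped (exact permutation adjusted p = 0.294). Clostridium sensu stricto 15 had 0, 12 and 7 reads in SAH and none elsewhere. Clostridium sensu stricto 7 (4 reads), unnamed Clostridiaceae (3 reads), Clostridium sensu stricto 11 (3 reads) and Acetoanaerobium (4 reads) each appeared in 1 library.

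Pairwise changes were tested with edgeR's quasi-likelihood test on the whole table, with Benjamini-Hochberg adjustment. A feature entered with 10 or more reads in 3 or more libraries. This left 4 of the 10 member genera and 19 of the 111 member ASVs in SAH against Sham and in SAH+Tet against SAH, and 5 and 25 in SAH+Tet+ABX against SAH+Tet.

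For SAH against Sham, edgeR called 0 of 4 member genera, beside 0.0% of all 187 features, of which 55 had an unadjusted p under 0.05. Candidatus Arthromitus had a log2 fold change of 3.52 ± 0.74 (SE; edgeR adjusted p = 0.0927), a ratio of mean shares of 10.1. It was the 1 member genus with an unadjusted p under 0.05. DESeq2 gave the same change an adjusted p of 5.84e-05, where 16.0% of the features were called higher. With depth class as a block edgeR gave 3.24 (adjusted p = 0.0176), where 11.8% were called higher, and the higher depth class alone gave 3.42 (adjusted p = 0.0231). Across all alternatives the log2 fold change stayed between 2.73 and 3.97, with adjusted p up to 0.249. Clostridium sensu stricto 1 had a log2 fold change of -0.87 ± 0.76 (edgeR adjusted p = 0.491) and Romboutsia one of -0.63 ± 0.42 (edgeR adjusted p = 0.368). The alternatives ran from -1.90 to -0.24 and from -1.29 to -0.36, with -0.25 and -0.37 without SAH 1. Unnamed Peptostreptococcaceae had -0.80 ± 1.42 (edgeR adjusted p = 0.742), which was -3.84 without SAH 2, -0.04 without SAH 1 and -0.01 without SAH 3. The groups did not overlap in 2 of the 4, Candidatus Arthromitus and Clostridium sensu stricto 1, as in 35.3% of all features tested.

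For SAH+Tet against SAH, edgeR called 0 of 4 member genera, beside 0.0% of all 187 features, of which 33 had an unadjusted p under 0.05. Candidatus Arthromitus had a log2 fold change of -2.54 ± 0.71 (edgeR adjusted p = 0.165). It alone among the 4 had groups that did not overlap, as had 23.5% of all features. DESeq2 gave -2.71 with an adjusted p of 0.00302, where 12.3% were called lower. This comparison shares the SAH libraries with SAH against Sham, so the opposite signs for Candidatus Arthromitus are not independent of each other. Romboutsia had a log2 fold change of 0.28 ± 0.42 (edgeR adjusted p = 0.730), which was -0.15 without SAH+Tet 2. Clostridium sensu stricto 1 had 0.07 ± 0.76 (edgeR adjusted p = 0.944), and its sign turned under several settings. Unnamed Peptostreptococcaceae had 2.06 ± 1.46 (edgeR adjusted p = 0.464), which was 5.24 without SAH 2 and 0.45 without SAH+Tet 2.

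For SAH+Tet+ABX against SAH+Tet, edgeR called 1 of 5 member genera, Clostridioides, beside 37.9% of all 195 features. Of those 74 features 18 were higher and 56 lower, so 9.23% of all features were called higher. The split was 38 higher and 67 lower with DESeq2. With limma, run on centred log-ratios, it was 42 higher and 33 lower. Clostridioides entered the fit only through the SAH+Tet+ABX libraries, since SAH+Tet had 0 reads and only SAH 2 and SAH 3 elsewhere had 10 or more, under the 3 libraries required. The filter thus fixed its direction, and its call and lack of overlap are given as a description. It was at least 5.98-fold higher in SAH+Tet+ABX, against 3 reads per SAH+Tet library (edgeR adjusted p = 0.0343). The call was lost without any 1 of SAH 2, SAH 3, SAH+Tet 1, SAH+Tet 2 or the 3 SAH+Tet+ABX libraries, with edgeR adjusted p between 0.0526 and 0.0727. Romboutsia had a log2 fold change of 0.75 ± 0.56 (edgeR adjusted p = 0.292), while the median over all 195 features was -1.70. DESeq2 gave Romboutsia 1.32 (adjusted p = 0.0417) and limma on centred log-ratio values 2.88 (adjusted p = 0.0223). In the edgeR fit of ASVs, Romboutsia ASV 1 had -0.55 ± 0.85 and ASV 2 had -0.08 ± 0.89, below 0 unlike the genus. The median over all 2394 ASVs there was -6.61. The less abundant Romboutsia ASVs tested had both signs. Candidatus Arthromitus had 2.60 ± 1.44 (edgeR adjusted p = 0.165), and 3.19 without SAH+Tet+ABX 2 (edgeR adjusted p = 0.0266). Clostridium sensu stricto 1 had -3.27 ± 1.68 (edgeR adjusted p = 0.142), which was -5.58 without SAH+Tet+ABX 2, -2.60 without SAH+Tet+ABX 1, -2.52 without SAH+Tet 2 and -2.08 with depth class as a block. Unnamed Peptostreptococcaceae had -0.73 ± 1.37 (edgeR adjusted p = 0.726), and its sign turned under some settings. Without SAH+Tet+ABX 2 the value of Romboutsia was 0.15, and without SAH+Tet+ABX 1 that of Candidatus Arthromitus was 1.20. The groups did not overlap in 2 of the 5, Clostridioides and Clostridium sensu stricto 1, as in 42.1% of all features.

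**Figure D4:**
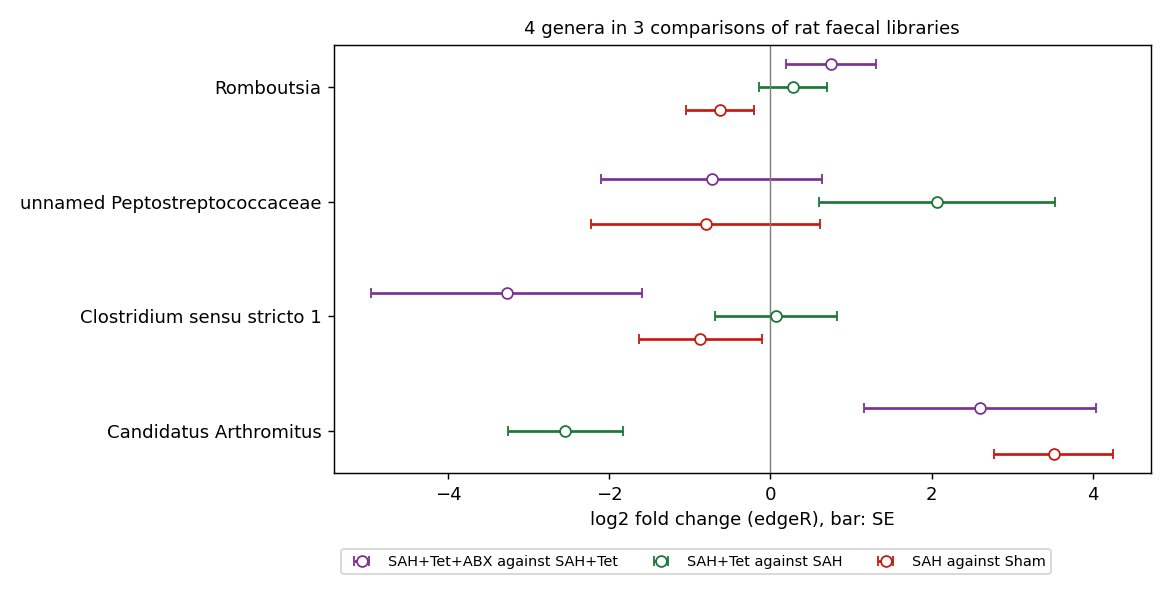
Log2 fold change with its SE (horizontal axis, edgeR) of the 4 genera tested in each of SAH+Tet+ABX against SAH+Tet, SAH+Tet against SAH, and SAH against Sham. Clostridioides, tested and called only in SAH+Tet+ABX against SAH+Tet, is not drawn. None of the points drawn passed an adjusted p of 0.05; Candidatus Arthromitus lies farthest right in SAH against Sham, at 3.52.

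No single member ASV was called by edgeR. The counts were 0 of 19 in SAH against Sham (0.0% of all 2283 ASVs tested, 553 with an unadjusted p under 0.05), 0 of 19 in SAH+Tet against SAH (0.0%, 474) and 0 of 25 in SAH+Tet+ABX against SAH+Tet (10.3% of 2394, 1264). Of the member ASVs, 4, 1 and 5 had an unadjusted edgeR p under 0.05 in these comparisons. DESeq2 called 3, 0 and 3 member ASVs, where it called 17.5%, 12.7% and 36.0% of all ASVs tested. Its 3 in SAH+Tet+ABX against SAH+Tet were ASV 3, ASV 4 and ASV 6 of Clostridium sensu stricto 1, all lower. With limma, run on centred log-ratios, the member counts were 2, 0 and 4, where 11.8%, 4.91% and 9.77% of all ASVs were called. The 2 limma calls were Clostridium sensu stricto 1 ASV 8 and ASV 9, which passed the read minimum only through Sham. Of the 4, Clostridioides ASV 2 had reads in SAH+Tet+ABX alone, so the filter set its direction. Romboutsia ASV 5, another of the 4, also needed those libraries to pass. The 4, which also included Romboutsia ASV 3 and ASV 4, were all higher, so limma and DESeq2 shared no member ASV call there. Library shares did not overlap between the groups for 9 of 19 member ASVs in SAH against Sham, 1 higher and 8 lower, as for 30.7% of all ASVs tested. This held for 1 of 19 in SAH+Tet against SAH (16.0% of all) and 4 of 25 in SAH+Tet+ABX against SAH+Tet (22.8% of all). The 8 lower include Clostridium sensu stricto 1 ASV 8 and ASV 9, and the 4 include Clostridioides ASV 2. Each of these had reads in 1 group only and passed the read minimum through that group. Their lack of overlap was thus set by the filter. The 3 that DESeq2 called in SAH against Sham were Candidatus Arthromitus ASV 1, higher, and Clostridium sensu stricto 1 ASV 8 and ASV 9, lower. ASV 8 and ASV 9 passed the read minimum only through Sham, so the direction of their call was set by the filter.

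The number of member ASVs, brought to a common depth of 211450 reads, was 17.3 ± 6.49 in SAH+Tet+ABX, 20.2 ± 6.91 in SAH+Tet, 19.3 ± 12.2 in SAH and 22.0 ± 10.1 in Sham (SD, n = 3 each, exact permutation p = 0.934). All ASVs together numbered 573 ± 117 in SAH+Tet+ABX, against 2066 ± 642 in SAH+Tet. Member ASVs were thus 3.09% ± 1.15 of all ASVs in SAH+Tet+ABX, against 1.03% ± 0.355 in SAH+Tet. Clostridiaceae had 1, 3 and 3 ASVs at the common depth in SAH+Tet+ABX, against 7, 16.7 and 5 in SAH+Tet, and these did not overlap. Nor did the counts of all ASVs, 440 to 659 in SAH+Tet+ABX against 1326 to 2483 in SAH+Tet. SAH+Tet 3, of the lower depth class, was the lowest SAH+Tet library in both counts. Peptostreptococcaceae had 16, 21.0 and 8.00 ASVs in SAH+Tet+ABX, against 8.41, 11.4 and 12 in SAH+Tet, and these overlapped.

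The neighbours of the 2 families were read beside them. Of 13 genus-level features in other families of the orders Peptostreptococcales-Tissierellales and Clostridiales, 7 were tested. None was called by edgeR in SAH against Sham or in SAH+Tet against SAH, with median log2 fold changes of -0.41 and 0.42, against 0.10 and 0.28 over all features. In SAH+Tet+ABX against SAH+Tet 1 of 7 was called, lower (list median -1.31, all features -1.70). This was Anaerovorax, with 0 reads in all 3 SAH+Tet+ABX libraries, against a mean share of 0.00783% ± 0.00236 in SAH+Tet (edgeR adjusted p = 0.0178).

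Of 6 genera known from the rodent small intestine, 4 were found and tested: Turicibacter, Lactobacillus, Streptococcus and Gemella. None was called by edgeR in any comparison. Their median log2 fold changes were 0.89 in SAH against Sham, -1.03 in SAH+Tet against SAH and 1.07 in SAH+Tet+ABX against SAH+Tet. Their values in SAH against Sham did not share 1 direction. Lactobacillus had a log2 fold change of 0.80 ± 0.53 (edgeR adjusted p = 0.365), Streptococcus of 1.29 ± 0.62 (edgeR adjusted p = 0.220) and Gemella of 0.99 ± 1.30 (edgeR adjusted p = 0.667). Turicibacter took 0.131%, 0.285% and 0.690% of the reads in SAH, against 2.01%, 2.08% and 2.20% in Sham. These did not overlap, as in 35.3% of all features tested (log2 fold change -2.38 ± 0.68, edgeR adjusted p = 0.115).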

How the data were processed

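Raw read counts per ASV, each with its lineage, were deposited by the authors in 1 table, which equals the 12 per-sample tables. The submitters' processing notes name fastp and cutadapt, without versions. Not given in the sources used here are the primers, the 16S region, the denoiser, the chimera filter and the database for taxonomy, and each can change how many ASVs are reported. Of 7240 ASVs, 2 Eukaryota were left out. Reads lacking a genus were added up at the lowest rank named, giving 384 features, of which 303 have a genus name. Members, lists and tests were chosen with earlier results of these data known. Named ASVs were the 12 of highest mean share plus the leading ASV of each other member genus; any other is said to be picked afterwards or was called.

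Tests used edgeR 4.0.16 in R 4.3.3 (quasi-likelihood, TMM scaling, group as the only term), fitted on the 9 libraries without ABX for the first 2 comparisons and on all 12 for SAH+Tet+ABX against SAH+Tet, and a threshold of 0.05 on Benjamini-Hochberg values. The SE is the absolute log2 fold change over the square root of F. The 4-group tests permuted the F statistic of log10(share + 1 read) over 15400 arrangements, for families of at least 0.01% mean share and genera of at least 0.001%. Alternatives were DESeq2 1.42.0, limma 3.58.1 on centred log-ratios (0.5 reads added), library-size scaling, no filter, 6 libraries, depth class or replicate number as a block, each library left out, and other scales. Replicates differed by more than counting error (chi-square per degree of freedom at least 69.8). Same-numbered libraries did not deviate together (2 of 18 correlations over 0.1), so numbers were not used as pairs.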

Additional observations from a re-analysis of the deposited data

How the results depend on the processing

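Of 495 alternative values for 28 results, 429 kept their direction and side of the threshold or moved little, 20 lost a call, 11 gained one, 23 counts moved and 12 changed sign. In SAH against Sham, DESeq2, the depth class block and the higher depth class alone each called 1 member genus, Candidatus Arthromitus. The last of these settings was added after seeing the data. The values were 3.52, 3.24 and 3.42, beside calls of 26.7%, 13.9% and 13.2% of all features. DESeq2, limma and the 6-library fit called 3, 2 and 2 member ASVs, beside 17.5%, 11.8% and 18.1% of all ASVs. In each setting 2 of these were Clostridium sensu stricto 1 ASV 8 and ASV 9, whose direction was set by the filter. In SAH+Tet against SAH, DESeq2 called 1 member genus (Candidatus Arthromitus, -2.71, beside 17.1% of all features). With no filter 1 of 92 member ASVs was called (1.34% of all). This was Clostridium sensu stricto 1 ASV 5, higher, whose 853 reads all lay in 1 library, SAH+Tet 2. In SAH+Tet+ABX against SAH+Tet, DESeq2 called 3 of 5 member genera, all higher, beside 53.8% of all features. These were Candidatus Arthromitus (3.04), Romboutsia (1.32) and Clostridioides, whose direction the filter fixed. It called 3 of 25 ASVs, all lower and of Clostridium sensu stricto 1, beside 36.0% of all ASVs. Limma called 2 member genera and 4 ASVs, all higher (Romboutsia as a genus 2.88), beside 38.5% and 9.77%. With no filter 1 ASV was called (3.88%), again Clostridium sensu stricto 1 ASV 5, here lower, and 1 with 6 libraries (55.2%). The 6-library call was Clostridioides ASV 2, also among the 4 by limma, which passed only through SAH+Tet+ABX. Leaving out 1 library gave 0 to 1 member genera and 0 to 2 member ASVs there, the 2 without SAH 1, and 1.20 to 3.19 for Candidatus Arthromitus.

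Signs turned for Clostridium sensu stricto 1 in SAH+Tet against SAH (-0.01 with no filter, -0.20 with 6 libraries, -0.15 in the higher depth class, -0.77 to 0.46 with 1 library left out) and for Romboutsia there (-0.15 to 0.43). They turned for unnamed Peptostreptococcaceae in SAH+Tet+ABX against SAH+Tet (1.77 by limma, 1.30 with the depth class block, -1.23 to 0.63 with 1 library left out). The cause was not tested. The median of all features there was -0.03 by limma, -1.16 by DESeq2 and -0.57 with the depth class block, against -1.70. In the 4-group tests, leaving out 1 library moved the adjusted p between 0.0201 and 0.115 for Clostridiaceae and between 0.0343 and 0.634 for Candidatus Arthromitus. Clostridioides had an adjusted p of 0.155 without a logarithm and 0.0527 as a share of Firmicutes. With a replicate block its edgeR call was lost (7.51, adjusted p = 0.0962), leaving 0 member genera called, and its 4-group adjusted p was 0.0877. The block changed no other call. At most 206 reads per library limit Candidatus Arthromitus and the rarer genera, and with 3 libraries a group small changes are not detectable.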

Other observations

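Of the 12 Romboutsia ASVs seen in at least 2 libraries, 4 had reads only in libraries of the lower depth class and 8 in both classes. Of the 4, ASV 8 had 94, 160 and 0 reads in SAH+Tet+ABX and 68 in SAH+Tet 3. ASV 9 had 88, 128 and 0 reads in SAH+Tet+ABX. ASV 10 had 56, 93 and 0 reads in SAH+Tet+ABX and 49 in SAH+Tet 3. ASV 11 had 39, 84 and 0 reads in SAH+Tet+ABX and 35 in SAH+Tet 3. All other libraries had 0 reads of these 4, which were picked out after their values were seen. In contrast, 14 of the 16 Clostridium sensu stricto 1 ASVs seen in at least 2 libraries had reads only in the higher class. The part of depth class in either pattern was not tested, and the shares of all ASVs with these patterns were not computed.

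Of the 111 member ASVs, 79 (71.2%) were seen in 1 library, against 47.9% of all 7238 ASVs. Most had few reads, with a median of 5. The highest was Clostridium sensu stricto 1 ASV 5, with 853 reads in SAH+Tet 2 and 0 in the 11 other libraries. Clostridium sensu stricto 1 ASV 11 had 266 reads, also in SAH+Tet 2, and Romboutsia ASV 12 had 139 in SAH+Tet+ABX 2. These ASVs were picked out after their values were seen.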
